A study of Mus musculus with 12 samples.

Results

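The proteins of the cytosolic ribosome are described here gene by gene, from the mRNA of mouse liver. Members were protein-coding genes whose symbol is Rpl or Rps followed by a number, together with Rplp0, Rplp1, Rplp2 and Rpsa. The transcripts were those of Ensembl release 94, and symbols and positions on GRCm38 came from the annotation of release 96. Rps6k kinases and names ending in -ps were left out, and a mean estimated count of at least 100 over all mice was required. By symbol 86 genes matched, and 82 of them were kept, among 9133 protein-coding genes with a mean count of at least 100. The genes not kept were Rpl39l, Rpl10l, Rps27rt and Rpl3l, with mean counts of 0.0892, 1.17, 40.3 and 43.6, and the lowest mean count inside the limit was 206.8, in Rps12. The 82 members were 43 large subunit genes, 31 small subunit genes, 3 genes of the stalk, 4 variants named after another member, and Rps19bp1, which matched by symbol but encodes a protein that binds Rps19 and is not a ribosome subunit. All 82 passed the filter on low counts and were tested.

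RNA was sequenced from the livers of 12 male C57Bl/6J mice, aged 5 to 6 months and housed singly, after 7 days on purified diets. The design crossed sulfur amino acid restriction (SAAR) with dietary fat, and asked how restriction and fat content act on the liver. The combinations HF.SAAR, HF.Ctrl, RF.SAAR and RF.Ctrl were fed to 3 mice each, and total estimated counts ranged from 16203094 in HF.Ctrl mouse 1 to 21230092 in HF.Ctrl mouse 2. Mice were numbered within a group in the order of their deposition, so a number links no mice across groups. In RF groups fat gave 18% of the energy and in HF groups 60%. Every diet, control diets included, lacked cysteine and held the same nitrogen, and the SAAR diets had less methionine, made up with glutamic acid. All mice drank deuterium-labelled water for a protein experiment and went without food for 4 h before death.

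A cytosolic ribosome joins a small subunit, which decodes the mRNA, to a large subunit, which forms the peptide bond and carries a flexible stalk that recruits elongation factors. Mammalian ribosomal protein mRNAs start with an unbroken run of pyrimidines, the terminal oligopyrimidine (TOP) tract, through which Larp1 and mTORC1 set how well they are translated when amino acids are scarce. The hepatocyte carries many ribosomes, since it makes most plasma proteins.

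The liver label was checked against markers. All 8 hepatocyte markers were detected, and their sum lay between 74755 CPM in HF.Ctrl mouse 2 and 97071 CPM in RF.Ctrl mouse 2, with Alb the most abundant at a mean of 57766 CPM. Pancreatic acinar genes, however, varied 420-fold between mice. All 28 genes of that list were matched and none was at 0 in every mouse, and Amy2a5 was the most abundant at a mean of 622 CPM. Their sum was 1378, 81.8 and 73.2 CPM in RF.Ctrl mice 1 to 3 and 46.1, 91.1 and 70.6 CPM in RF.SAAR. It was 1625, 5580 and 69.7 CPM in HF.Ctrl mice 1 to 3 and 73.7, 3721 and 19349 CPM in HF.SAAR. The 5 mice above 1000 CPM were thus RF.Ctrl mouse 1, HF.Ctrl mice 1 and 2, and HF.SAAR mice 2 and 3, and results are also given without them. Sums of Kupffer and immune, endothelial, stellate and cholangiocyte markers varied by at most 1.71-fold between mice, the erythroid sum by 2.52-fold, and the adipocyte sum by 12.6-fold at no more than 19.5 CPM. In RNA from whole tissue, fewer cells of a type and less RNA per cell cannot be told apart.

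Stretches near the listed start are shown because ribosomal protein mRNAs are known for a pyrimidine run there, and the genes below are those on which the results turn. Promoters came from RefSeq on GRCm38.p6, 250 bases before and 50 after each listed start, and 62 of the 82 members had an entry. Each line gives 30 bases in the direction of transcription, with the longest run of C or T in the 50 bases on either side of the listed start in capitals. Rpl5 lies at chr5:107900498-107900527 on the plus strand, Rpl12 at chr2:32961732-32961761 (plus), Rpl36a at chrX:134585673-134585702 (plus), Rpsa at chr9:120127705-120127734 (plus) and Rpl13a at chr7:45128722-45128751 (minus). Of the variants and their partners, Rpl36al lies at chr12:69184020-69184049 (minus), Rpl22l1 at chr3:28805499-28805528 (plus), Rpl22 at chr4:152325679-152325708 (plus), Rps27l at chr9:66946054-66946083 (plus), Rps27 at chr3:90213631-90213660 (minus) and Rpl7l1 at chr17:46782670-46782699 (minus).
Rpl5: cctacagccaCTCTTTCTCacgtcgcttgc
Rpl12: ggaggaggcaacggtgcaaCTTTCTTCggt
Rpl36a: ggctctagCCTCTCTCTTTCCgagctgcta
Rpsa: cggaagttctcCCTTTTTgcttagcctgct
Rpl13a: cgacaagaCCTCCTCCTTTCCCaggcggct
Rpl36al: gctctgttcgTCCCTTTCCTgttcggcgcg
Rpl22l1: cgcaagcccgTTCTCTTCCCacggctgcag
Rpl22: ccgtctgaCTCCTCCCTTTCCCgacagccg
Rps27l: cccgcctccaCTCCTCTCCactcctccccg
Rps27: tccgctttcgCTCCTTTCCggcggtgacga
Rpl7l1: gtcgaggcgggCCTCTCTaccccgcccggt

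The run measured 14 bases in Rpl13a and Rpl22, 13 in Rpl36a, 10 in Rpl36al and Rpl22l1, 9 in Rpl5, Rps27 and Rps27l, and 8 in Rpl12. It measured 7 bases in Rpl7l1. In Rpsa 7 bases lay inside the searched stretch, but the run crosses its edge and goes on into the lower case letters before the capitals. Counted from the listed start as 0, the runs began at 1 in Rpl22l1, 2 in Rpl13a, -2 in Rps27, -20 in Rpl5, -22 in Rps27l, -32 in Rpl7l1, -39 in Rpl22 and -50 in Rpsa. They began at 27 in Rpl36a, 28 in Rpl36al and 39 in Rpl12. Most marked runs were thus not at the listed start, and none is shown to be a TOP tract. Of the 62 members with an entry, 51 (82.3%) had a run of 8 or more C or T in a row on the transcribed strand within 50 bases of a listed start, against 39.3% of all 27025 genes in the table. The median longest run was 10 bases in the members and 7 bases in all genes. Short motifs were searched on both strands of the 300 bases. CCGGAAG, letters bound by ETS family factors, stood in 25 members (40.3%) and in 9.93% of all genes, and AAGATGGC, letters bound by YY1, in 6 members (9.68%) and in 3.19%. GGGCGG was in 40 members (64.5%) and in 38.2% of all genes, and TATAAA in 7 members (11.3%) and in 15.7%. Promoters of members held 58.2% G or C at the median, against 52.75% over all genes. The motif shares were not adjusted for this. A match is a description of the letters and not a bound site.

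The members also shared short mRNAs. Their median coding sequence had 151 codons against 448 in the 14050 protein-coding genes tested that have a coding sequence in the annotation. The whole mRNA measured 751 bases against 2981 at the median, and 91.5 bases against 166 preceded the start codon. Methionine and cysteine codons together made up 3.74% of the coding sequence at the median, against 4.30%. Cysteine codons were missing altogether from 16 of 82 members (19.5%) and from 3.12% of the other set. The genes lay on 19 chromosomes, with 14 of the 82 on chromosome 7.

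Ribosomal protein mRNAs were abundant but unevenly so. On the TPM scale, which corrects for length, the median level of the 82 members was 405 over all 12 mice, against 4.90 in the 14226 protein-coding genes tested, and 77 of the 82 had a mean of at least 100 TPM. The highest means were 1482 TPM for Rpl13a, a large subunit protein also known as part of a complex that silences inflammatory mRNAs, 1349 TPM for the stalk protein Rplp1, and 1203 TPM for the zinc finger protein Rps27 of the small subunit. The lowest were 17.4 TPM for Rpl5, which carries 5S ribosomal RNA into the large subunit, 21.5 TPM for Rpl12, which sits at the base of the stalk, and 22.5 TPM for Rps19bp1. By class the median level was 397 TPM in the large subunit, 441 TPM in the small subunit and 371 TPM in the stalk. The proteins are needed in about equal numbers in a ribosome, while the mRNA levels of the highest and lowest members lay far apart.

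**Figure D1:**
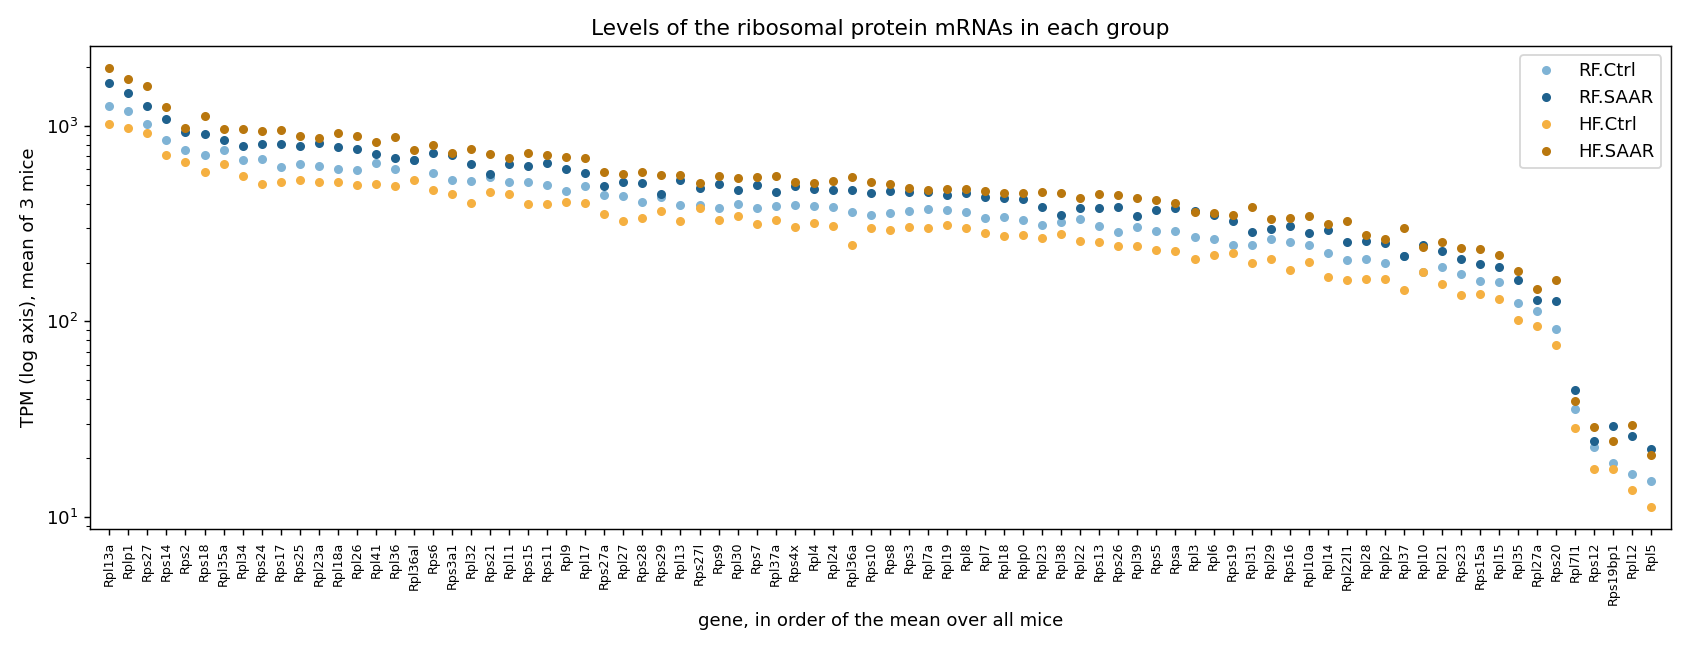
Mean TPM (log axis) of the 82 ribosomal protein genes in each of 4 groups of 3 mice, ordered by the mean over all mice. A total of 77 genes lie at a mean of 100 TPM or more, and Rpl7l1, Rps12, Rps19bp1, Rpl12 and Rpl5 lie below it.

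For several low members, most counts were assigned to similar copies elsewhere in the genome. kallisto divides reads that match several transcripts, and processed pseudogenes, which are retroposed copies of an mRNA, can be nearly identical to the gene. Copies were matched to each member by sequence, a step chosen after seeing the data, and included genes with names ending in -ps that the annotation lists as protein-coding. For Rpl5, 95.2% of the counts of the gene and its copies were assigned to the copies, mainly to Gm15500 on chromosome 7, and for Rps12 94.2%, mainly to Rps12-ps3 on chromosome 19, listed as protein-coding. For Rpl12 the share was 94.2%, mainly Gm10275 on chromosome 10, and for Rpl10 it was 77.8%, mainly Rpl10-ps3 on chromosome 9, also listed as protein-coding. The share was 58.9% for Rpl27a, 45.6% for Rps23, 34.8% for Rpl31 and 12.3% for Rpl36a. The counts and TPM of these genes are therefore uncertain, and their low rank is not a statement about the gene alone. Rpl36a-ps2 was assigned between 0 counts in HF.SAAR mouse 1 and 690 in HF.SAAR mouse 2.

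The members' share of all TPM was set beside the scaling before any test. It was 3.25%, 3.48% and 3.15% in RF.Ctrl mice 1 to 3, and 4.02%, 4.21% and 3.92% in RF.SAAR mice. It was 2.80%, 2.89% and 2.43% in HF.Ctrl mice and 4.38%, 4.89% and 4.60% in HF.SAAR mice. All 6 SAAR mice lay above all 6 Ctrl mice, and HF.Ctrl held the 3 lowest shares and HF.SAAR the 3 highest. This share was not tested, and it depends on all other genes: with library size alone as the scaling, the median of all 14670 genes tested was 0.16 (log2) for restriction on regular fat and 0.17 for restriction on high fat. The TMM factors of edgeR, under which both medians were near 0, ran from 0.863 to 0.998 in Ctrl mice and in SAAR mice from 0.980 to 1.11. Fold changes are given on TMM scaling; on library size alone the members' medians were 0.21 and 0.58, and 0.049 and 0.42 relative to the shift. The balance of the subunits moved little, as TPM summed over the large subunit and stalk was between 1.28 and 1.34 times the sum over the small subunit in every mouse.

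Seen mouse by mouse, most members stood high or low in the same mice. Each gene's log2 normalized CPM was centred on its mean over 12 mice, and the median over the 82 members was taken. This median was -0.0018, -0.04 and -0.13 in RF.Ctrl mice 1 to 3 and -0.13, 0.20 and -0.08 in RF.SAAR mice. It was -0.11, 0.12 and -0.55 in HF.Ctrl mice and 0.11, 0.46 and 0.14 in HF.SAAR mice. The lowest mouse was HF.Ctrl mouse 3, in which 0 of 82 members were above their own mean, and the highest were HF.SAAR mouse 2 and RF.SAAR mouse 2, with 81 of 82 above it in each. The RF groups overlapped, and the HF groups overlapped as well, since HF.Ctrl mouse 2 (0.12) lay above HF.SAAR mouse 1 (0.11). The SD of the median within groups, pooled, was 0.22. The high HF.SAAR mouse 2 had an acinar sum of 3721 CPM and the low HF.Ctrl mouse 3 one of 69.7 CPM, while RF.SAAR mouse 2 had 91.1 CPM and HF.SAAR mouse 3, with the largest acinar sum, had a median of 0.14. Their part in the result was not tested here beyond the values without those mice. Among single members the SD of log2 CPM within groups ran from 0.09 in Rpl7l1 to 0.42 in Rpl38.

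**Figure D2:**
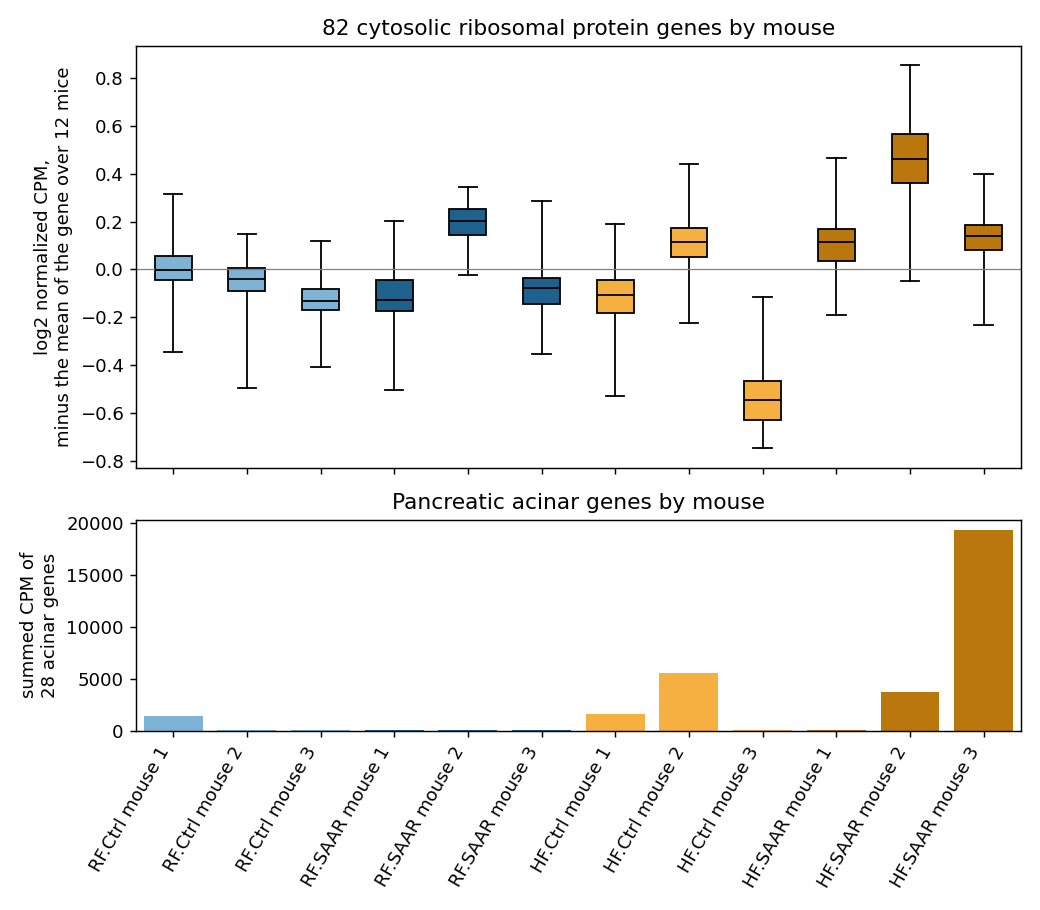
Top, log2 normalized CPM of the 82 genes in each mouse, minus each gene's mean over the 12 mice (box: quartiles, line: median, whiskers: range); bottom, summed CPM of 28 pancreatic acinar genes in the same mice. HF.Ctrl mouse 3 has a median of -0.55 and HF.SAAR mouse 2 one of 0.46.

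Restriction on regular fat was compared first. The ribosomal protein mRNAs stood close to their control levels, with small differences mostly to the higher side, and no member passed the test. At an adjusted p under 0.05, 0 of 82 members were higher and 0 lower by edgeR, whereas 0.600% of all genes tested were called higher and 0.886% lower. DESeq2 called 0 as well, against 1.83% and 2.30% of all genes. Where p was not adjusted, edgeR had 2 members under 0.05 that were higher, Rpl12 and Rpl5, and 0 lower, a smaller share than the 6.27% and 7.28% of all genes at that threshold. The median log2 fold change of the members was 0.05 (quartiles 0.0055 and 0.12), with 63 of 82 above 0, while the median of all genes was -0.0013. The other 831 genes with a mean TPM of at least 100 had a median of -0.10. Without RF.SAAR mouse 2 the members' median was -0.04, with 28 of 82 above 0, and without RF.SAAR mouse 1 it was 0.11. RF.Ctrl mouse 1 had the only acinar sum above 1000 CPM among these 6 mice, and without all 5 such mice the median was 0.09, with 0 called by edgeR and 4 at an unadjusted p under 0.05. With the acinar sum as a covariate it was 0.13, with 76 of 82 above 0, 0 called by edgeR and 5 at an unadjusted p under 0.05.

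By class, the median log2 fold change on regular fat was 0.03 for the 43 large subunit genes, 0.10 for the 31 small subunit genes, 0.07 for the stalk and 0.05 for the variants. In 9 of 82 members every RF.SAAR mouse lay above every RF.Ctrl mouse, and in 0 every one lay below, where 8.51% of all genes lay apart upward and 9.70% downward. The 9 were Rpl5, Rpl7, Rpl12, Rpl13a, Rps3a1, Rps6, Rps7, Rpsa and Rps19bp1, of which Rps3a1, Rps6 and Rps7 lie outside the rule for named genes and were chosen after their values were seen. Rps19bp1 had normalized CPM of 14.2, 12.3 and 10.3 in RF.Ctrl mice and 15.3, 17.2 and 15.2 in RF.SAAR mice. Its groups did not overlap, and its log2 fold change of 0.37 (edgeR, SE 0.18, adjusted p = 0.416) did not pass the test. The lowest value was that of Rpl36al, at -0.24 (SE 0.20, edgeR adjusted p = 0.685), with RF.SAAR mouse 2 inside the range of RF.Ctrl.

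Restriction on high fat gave the larger differences. Nearly all ribosomal protein mRNAs had higher values in HF.SAAR than in HF.Ctrl, by a median fold of 1.33, yet only 4 rose by the test. These were 3 genes of the large subunit, Rpl5, Rpl12 and Rpl36a, and Rpsa of the small subunit. At an adjusted p under 0.05, edgeR called 4 of 82 members higher and 0 lower, against 1.01% and 0.961% of all genes tested, and DESeq2 called 21 higher and 0 lower, against 2.17% and 1.95% of all genes by DESeq2. By edgeR 56 members were higher and 0 lower where p was taken unadjusted at the same threshold, against 6.47% and 5.97% of all genes. The median log2 fold change was 0.41 (quartiles 0.34 and 0.46), with 81 of 82 above 0, beside a median of -0.0014 over all genes and 0.01 over the other 831 genes at 100 TPM or more. HF.SAAR mice lay wholly above HF.Ctrl mice in 34 of 82 members and wholly below in 0, where 8.89% and 8.97% of all genes lay apart in these directions. All members share the same 6 mice, so these counts are not independent of each other.

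**Figure D3:**
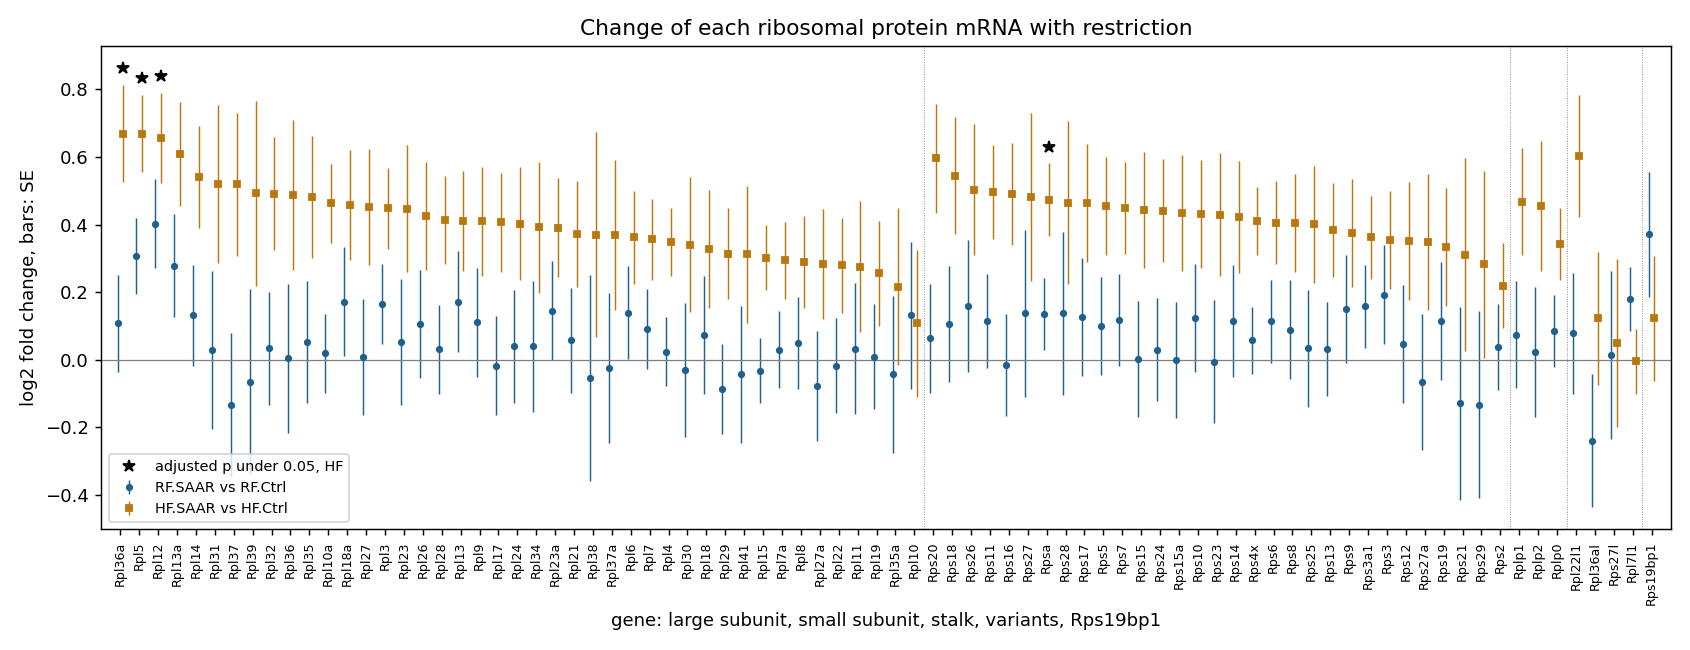
Log2 fold change (points) with its SE (bars) of each of the 82 genes on TMM scaling, for restriction on regular fat and on high fat, ordered by class, with stars at the 4 genes called on high fat. On high fat 81 genes lie above 0 and on library size alone 82 do; on regular fat 63 lie above 0, and 81 on library size alone. On library size alone the median of all genes tested is 0.17 on high fat and 0.16 on regular fat.

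Leaving out single mice moved these values. Shares of all genes passing were computed for the reported edgeR fit and for DESeq2, not for the edgeR alternatives here and below. Without HF.Ctrl mouse 3, the lowest mouse, the members' median was 0.25 and edgeR called 1 member. Without HF.SAAR mouse 2, the highest, it was 0.27 with 1 called. Each of these fits had 21 members at an unadjusted p under 0.05 by edgeR, against 69 without HF.Ctrl mouse 2. Without HF.Ctrl mouse 2 the median was 0.56 with 18 called. The count was 0 without HF.Ctrl mouse 1, with 45 members at an unadjusted p under 0.05, then 1 without HF.SAAR mouse 1 and 2 without RF.Ctrl mouse 2; DESeq2 was not run on these subsets. Acinar genes were high in HF.Ctrl mice 1 and 2 and in HF.SAAR mice 2 and 3. Without the 5 mice above 1000 CPM, 1 mouse was left in each HF group, assumed to vary like the others. Those left were HF.Ctrl mouse 3, the lowest mouse, and HF.SAAR mouse 1. The median was then 0.63, with 81 of 82 above 0, and edgeR called 0 members, with 67 at an unadjusted p under 0.05. With the acinar sum as a covariate the median was 0.38 and 4 members were called. On library size alone 58 members were called, and the median of all genes was then 0.17. Where the HF mice were fitted alone, 1 member, Rpl5, was called.

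In the large subunit, 3 of 43 genes rose on high fat, 29 had an unadjusted p under 0.05 by edgeR, and all 43 had values above 0, with a median of 0.40. Rpl5 (ENSMUSG00000058558, chr5:107900502-107909005, plus strand) binds 5S ribosomal RNA together with Rpl11 and can also bind Mdm2. Its normalized CPM were 17.0, 15.7 and 15.6 in RF.Ctrl mice and 18.9, 21.2 and 19.7 in RF.SAAR mice. They were 11.8, 14.6 and 12.5 in HF.Ctrl mice and 19.5, 19.9 and 22.6 in HF.SAAR mice. At each fat level all SAAR mice lay above all Ctrl mice, and the HF.Ctrl mice were the lowest of all. The log2 fold change was 0.67 on high fat (SE 0.11, edgeR adjusted p = 0.00829, higher in 3 of 3 mice) and 0.31 on regular fat (SE 0.11, edgeR adjusted p = 0.233). The counts of Gm15500, to which most reads of this sequence were assigned, were 4370, 6640 and 4390 in HF.Ctrl mice and 6552, 8545 and 8401 in HF.SAAR mice. HF.Ctrl mouse 2 lay above HF.SAAR mouse 1 there, on counts not scaled for depth. For Rpl5 and its copies summed, the log2 fold change on high fat was 0.36 (SE 0.12, edgeR adjusted p = 0.205), so the call did not hold for the sum. The gene itself was not called without HF.Ctrl mouse 1, nor with offsets for effective length, where its value was 0.54 (SE 0.16, edgeR adjusted p = 0.132).

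Rpl12 (ENSMUSG00000038900, chr2:32961559-32965345, plus strand) encodes a protein that lies beside Rplp0 at the foot of the stalk. Normalized CPM were 12.9, 11.2 and 11.6 in RF.Ctrl mice and 14.8, 16.1 and 16.3 in RF.SAAR mice. On high fat the values were 11.8, 12.0 and 9.69 in control mice and 16.5, 20.5 and 15.8 in restricted mice. Every SAAR mouse lay above every Ctrl mouse, with HF.SAAR mouse 2 the highest. The log2 fold change was 0.66 on high fat (SE 0.13, edgeR adjusted p = 0.0203, higher in 3 of 3 mice) and 0.40 on regular fat (SE 0.13, edgeR adjusted p = 0.168). For the sum with its copies it was 0.73 on high fat (SE 0.14, edgeR adjusted p = 0.0165). The main copy, Gm10275, had counts of 2505, 3806 and 2209 in HF.Ctrl mice and 4886, 6189 and 5951 in HF.SAAR mice. The call on the gene was lost without HF.Ctrl mouse 1 or 3 and without HF.SAAR mouse 1 or 2.

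Rpl36a (ENSMUSG00000079435, chrX:134585654-134588062, plus strand) encodes a protein near the site where deacylated tRNA leaves. Normalized CPM were 101, 91.8 and 89.5 in RF.Ctrl mice and 99.8, 109 and 95.3 in RF.SAAR mice. On high fat they were 77.1, 91.2 and 60.1 in control mice and 113, 141 and 109 in restricted mice. The RF groups overlapped, while all HF.SAAR mice lay above all HF.Ctrl mice. The log2 fold change was 0.11 on regular fat (SE 0.14, edgeR adjusted p = 0.845) and 0.67 on high fat (SE 0.14, edgeR adjusted p = 0.0307, higher in 3 of 3 mice). With its copies added the value on high fat was 0.52 (SE 0.21, edgeR adjusted p = 0.304), so this call too did not hold for the sum. The call on the gene was lost without RF.Ctrl mouse 2, without HF.Ctrl mouse 1 or 3, and without HF.SAAR mouse 1 or 2.

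**Figure D4:**
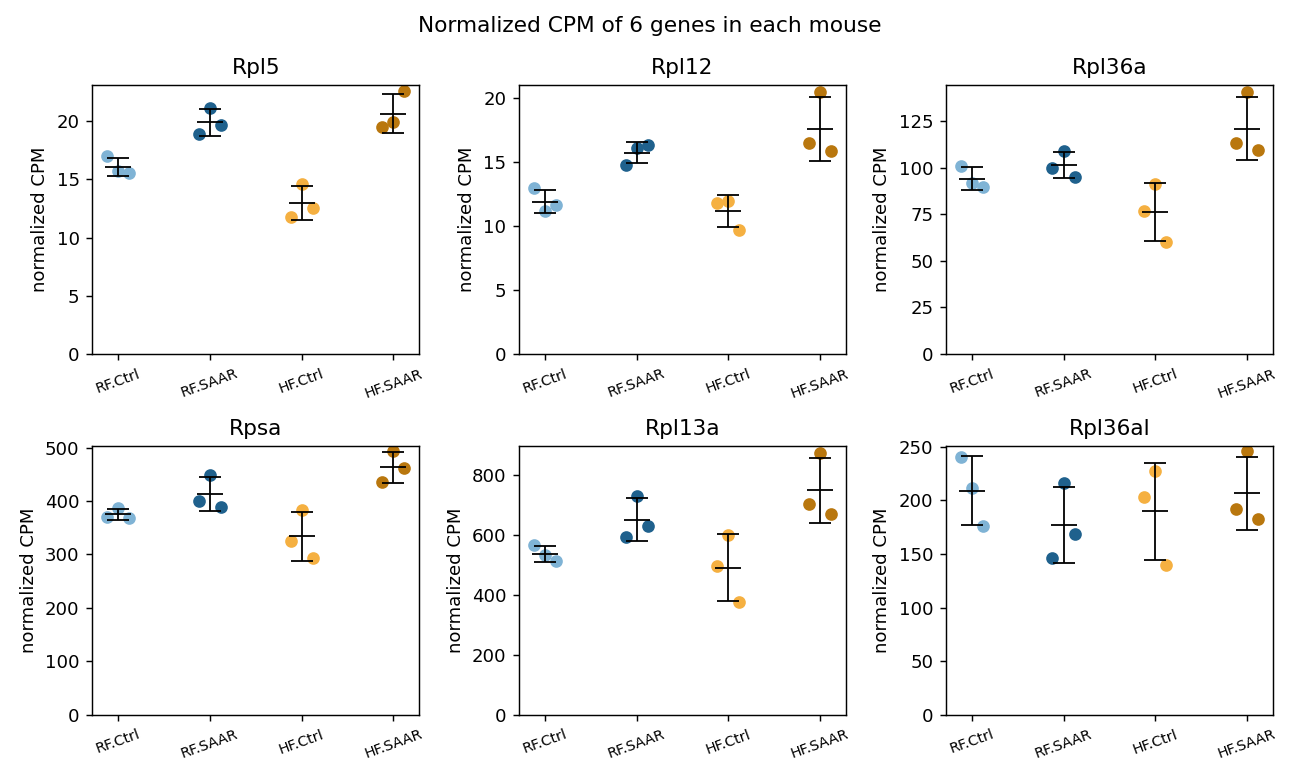
Normalized CPM of Rpl5, Rpl12, Rpl36a, Rpsa, Rpl13a and Rpl36al in each mouse (points), with the mean and SD of each group of 3 mice. The HF.SAAR mice lie above the HF.Ctrl mice in all of them but Rpl36al, whose groups overlap.

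Rpl13a (ENSMUSG00000074129, chr7:45125558-45128761, minus strand), the most abundant member in TPM, had normalized CPM of 566, 533 and 514 in RF.Ctrl mice and 595, 732 and 629 in RF.SAAR mice. In HF mice the values were 498, 601 and 376 on the control diet and 706, 874 and 670.2 under restriction. The groups did not overlap at either fat level, and HF.Ctrl mouse 3 was far below the others. The log2 fold change of 0.61 on high fat (edgeR, SE 0.15, adjusted p = 0.0638) and that of 0.28 on regular fat (SE 0.15, edgeR adjusted p = 0.484) did not pass the test, although on high fat DESeq2 called it, as did edgeR without the low-count filter. Rpl3 (ENSMUSG00000060036, chr15:80077791-80091868, minus strand), which reaches toward the peptidyl transferase centre, had 252, 326 and 236 CPM in HF.Ctrl mice and 351, 368 and 393 CPM in HF.SAAR mice. Again the HF groups were apart, with a log2 fold change of 0.45 (edgeR, SE 0.12, adjusted p = 0.0816), and DESeq2 called it.

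Other large subunit genes whose proteins have been described as exchanging on assembled ribosomes were named for that reason. Their log2 fold changes on high fat were 0.11 for Rpl10, which joins the subunit late, 0.26 for Rpl19 and 0.40 for Rpl24, which both reach across to the small subunit, 0.34 for Rpl30, 0.39 for Rpl34 and 0.37 for Rpl38, known for its part in translating Hox mRNAs. None of these passed the test, and on regular fat the values lay between -0.05 for Rpl38 and 0.13 for Rpl10. For Rpl10 and its copies summed the value on high fat was 0.28 (SE 0.14, edgeR adjusted p = 0.431). In Rpl38 the mice of a group spread widely, with 57.5, 60.3 and 30.4 CPM in HF.Ctrl and 48.6, 90.5 and 52.4 CPM in HF.SAAR, and the groups overlapped. Rpl35a, mutated in some patients with Diamond-Blackfan anemia, was at 0.22 on high fat and -0.04 on regular fat. Rpl39, a short protein in the wall of the exit tunnel, was at 0.49 and -0.06.

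In the small subunit 1 of 31 genes rose on high fat, 23 had an unadjusted p under 0.05 by edgeR, and all 31 had values above 0, with a median of 0.43. The gene was Rpsa (ENSMUSG00000032518, chr9:120127689-120132369, plus strand), whose product was first known as the laminin receptor and is needed to mature the small subunit. Normalized CPM were 370.0, 387 and 369 in RF.Ctrl mice and 400.4, 449 and 389 in RF.SAAR mice. On high fat they were 324, 384 and 293 in control mice and 435, 493 and 462 in restricted mice. The groups were apart at each fat level, narrowly on regular fat. The log2 fold change was 0.47 on high fat (SE 0.11, edgeR adjusted p = 0.0363, higher in 3 of 3 mice) and 0.14 on regular fat (SE 0.11, edgeR adjusted p = 0.661). Rpsa was called with the matched copies added, and was not called with its most abundant transcript alone, where the value was 0.47 (SE 0.11, edgeR adjusted p = 0.0734). It was not called without RF.Ctrl mouse 1, 2 or 3, without RF.SAAR mouse 1, without HF.Ctrl mouse 1 or 3, or without any 1 of the HF.SAAR mice.

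Rps4x, the X-linked copy of a core small subunit gene, came closest after it. Its normalized CPM were 244, 286 and 226 in HF.Ctrl mice and 316, 357 and 331 in HF.SAAR mice, without overlap. The log2 fold change was 0.41 (SE 0.10, edgeR adjusted p = 0.0575), against 0.06 on regular fat. On high fat it was called by DESeq2, and by edgeR with offsets for effective length and where each mouse had to have 10 counts. Rps27a, made as a fusion with ubiquitin, was at 0.35 on high fat and -0.07 on regular fat, and Rps29, another Diamond-Blackfan gene, at 0.28 and -0.13, with overlapping groups in each case. Rps27 had 159, 182 and 104 CPM in HF.Ctrl mice and 152, 289 and 179 CPM in HF.SAAR mice. HF.SAAR mouse 2 stood out there, and the log2 fold change of 0.48 (edgeR, SE 0.25, adjusted p = 0.475) did not pass the test.

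In the stalk, where Rplp0 anchors dimers of Rplp1 and Rplp2, edgeR called 0 of 3 genes on high fat, all 3 had an unadjusted p under 0.05, and DESeq2 called 1, Rplp0. Rplp0 had 359.9, 434 and 318 CPM in HF.Ctrl mice and 462, 473 and 475 CPM in HF.SAAR mice. Rplp1 had 344, 375 and 249 CPM in the former and 403, 544 and 394 CPM in the latter, and Rplp2 had 117, 129 and 76.0 CPM against 121, 181 and 139 CPM. The groups were apart for Rplp0 and Rplp1 but not for Rplp2. The log2 fold changes were 0.34 (SE 0.11), 0.47 (SE 0.16) and 0.46 (SE 0.19), in that order, and on regular fat they were 0.09, 0.07 and 0.02.

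Averaged over both fat levels, restriction went with higher values in 81 of 82 members. The genes that rose were Rpl5, Rpl12, Rpl13a, Rpl36a and Rpl3 of the large subunit and Rpsa of the small subunit. edgeR called 6 of 82 higher and 0 lower at an adjusted p under 0.05, where 3.22% of all genes tested passed on the higher side and 3.70% on the lower. Of the members, 38 were higher and 0 lower by edgeR at an unadjusted p under 0.05, beside 9.98% and 10.3% of all genes. Leaving out a mouse, the members under that threshold numbered from 19, without HF.SAAR mouse 2, to 57, without HF.Ctrl mouse 2. DESeq2 called 14 higher and 0 lower, beside 4.78% and 4.67%. The median log2 fold change was 0.23, beside -0.0039 over all genes. Leaving out a mouse, the members' median ran from 0.16, without HF.Ctrl mouse 3, to 0.31, without HF.Ctrl mouse 2. The log2 fold change was 0.49 for Rpl5 (SE 0.080, edgeR adjusted p = 0.00273) and 0.53 for Rpl12 (SE 0.093, edgeR adjusted p = 0.00415). Each had 6 of 6 SAAR mice above all Ctrl mice at the same fat level. Rpl13a had 0.44 (SE 0.11, edgeR adjusted p = 0.025) and Rpsa 0.31 (SE 0.075, edgeR adjusted p = 0.0262), in the same 6 of 6 mice. For Rpl36a it was 0.39 (SE 0.10, edgeR adjusted p = 0.0353) and for Rpl3 0.31 (SE 0.084, edgeR adjusted p = 0.044), and in both the RF groups overlapped while 3 of 3 HF.SAAR mice lay above. The count was 2 without RF.Ctrl mouse 2, RF.Ctrl mouse 3, RF.SAAR mouse 2, HF.Ctrl mouse 1 or HF.SAAR mouse 2, and 3 without HF.Ctrl mouse 3. It was 22 without HF.Ctrl mouse 2. It was 12 with the acinar sum as a covariate. Without the 5 mice high in acinar genes the members' median was 0.35. HF.Ctrl mouse 3 and HF.SAAR mouse 1 were then alone in their groups. With sequence-matched copies added, Rpl5 at 0.27 (SE 0.088, edgeR adjusted p = 0.0895) and Rpl36a at 0.31 (SE 0.15, edgeR adjusted p = 0.265) were not called. With offsets for effective length, Rpl5 at 0.40 (SE 0.11, edgeR adjusted p = 0.054) and Rpl13a at 0.37 (SE 0.13, edgeR adjusted p = 0.141) were not called. With the most abundant transcript of each gene alone, Rpl36a at 0.39 and Rpl3 at 0.30 were not called.

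Across the 82 genes, the log2 fold change on regular fat went with the number of codons at a Spearman rho of 0.47. On high fat the rho was -0.14, and for the high fat value minus the regular fat value it was -0.53. For mRNA length, rho was 0.27 on regular fat and -0.02 on high fat. For the share of methionine and cysteine codons, rho was -0.22 on regular fat and -0.06 on high fat, and for log2 TPM it was -0.0031 and -0.03. These describe genes measured in the same mice, which are not independent replicates.

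The variants are genes named after another member, whose protein they resemble. Their mean levels lay inside the range of the other members, at 658 TPM for Rpl36al, 442 TPM for Rps27l, 237 TPM for Rpl22l1 and 37.0 TPM for Rpl7l1, and 3 of 4 had log2 fold changes above 0 at each fat level. Of 8 pairs of a variant and its partner, 4 had enough counts to be tested as a log2 ratio of TPM within each mouse. Rpl39l, Rpl3l and Rpl10l were below the limit, with mean counts of 0.0892, 43.6 and 1.17, and Rps4l was not found by symbol. The test was an exact permutation of diet within each fat level, two-sided, with 400 relabelings and a smallest p of 0.005, adjusted over 4 pairs.

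Rpl36al is a copy of Rpl36a with its own promoter and with a mean TPM 162% of its partner's. The log2 ratio was 1.04, 0.87 and 0.76 in RF.Ctrl mice and 0.23, 0.79 and 0.52 in RF.SAAR mice. It was 1.20, 1.13 and 0.99 in HF.Ctrl mice and 0.42, 0.57 and 0.42 in HF.SAAR mice. The HF groups did not overlap, and on regular fat RF.SAAR mouse 2 lay inside the control range. The ratio fell by a mean of 0.51 (-0.38 on regular fat and -0.64 on high fat; exact permutation p = 0.01, adjusted p = 0.04, lower than all controls of its fat level in 5 of 6 SAAR mice). In TPM, Rpl36a had group means of 362 (SD 27.9) in RF.Ctrl, 471 (SD 47.7) in RF.SAAR, 246 (SD 9.92) in HF.Ctrl and 545 (SD 15.5) in HF.SAAR. Rpl36al had 673 (SD 86.1), 671 (SD 64.1), 532 (SD 57.1) and 756 (SD 34.1) TPM in the same order. These TPM carry no TMM factors and are not on the scale of the fold changes above. In TPM the HF groups of Rpl36al were apart, while in normalized CPM they overlapped. The test was not passed with the TPM of matched copies added to each gene, where the mean difference was -0.33 (exact permutation, adjusted p = 0.06), nor without RF.Ctrl mouse 1, RF.Ctrl mouse 2 or RF.SAAR mouse 1, where it lay between -0.51 and -0.44.

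Rpl22l1 is kept low by the Rpl22 protein, which binds its mRNA, and its mean TPM was 67.8% of that of Rpl22. The log2 ratio was -0.80, -0.70 and -0.62 in RF.Ctrl mice and -0.45, -0.56 and -0.70 in RF.SAAR mice. It was -0.84, -0.41 and -0.79 in HF.Ctrl mice and -0.29, -0.52 and -0.35 in HF.SAAR mice. The groups overlapped at both fat levels, and the mean difference of 0.21 did not pass the test (exact permutation p = 0.045, adjusted p = 0.06), except without HF.Ctrl mouse 2, where it was 0.28. Rpl22l1 itself had 52.4, 73.7 and 41.5 CPM in HF.Ctrl mice and 76.8, 102 and 76.1 CPM in HF.SAAR mice. Those groups were apart, with a log2 fold change of 0.60 (edgeR, SE 0.18, adjusted p = 0.13), and DESeq2 called it.

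Rps27l, a copy of Rps27 that p53 can induce, had a mean TPM 36.7% of its partner's. The log2 ratio was -1.29, -1.40 and -1.43 in RF.Ctrl mice and -1.38, -1.35 and -1.45 in RF.SAAR mice. It was -1.35, -1.26 and -1.21 in HF.Ctrl mice and -1.43, -1.75 and -1.73 in HF.SAAR mice. The RF groups overlapped and the HF groups did not, and the mean difference of -0.19 did not pass the test (exact permutation p = 0.045, adjusted p = 0.06). Rpl7l1 is found in the nucleolus with precursors of the large subunit, and its mean TPM was 9.75% of that of Rpl7. Its ratio differed by -0.14 (exact permutation p = 0.175, adjusted p = 0.175). Rpl7l1 was the member whose log2 fold change on high fat lay below 0, at -0.0046 (SE 0.096, edgeR adjusted p = 0.992), and on library size alone it too was above 0.

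Whether restriction acted differently at the fat levels was tested as the interaction. The restriction fold change was larger on high fat in 79 of 82 members, with Rpl10, Rpl7l1 and Rps19bp1 the exceptions, but no single gene passed. Most counts of Rpl10 and its copies were assigned to the copies. With copies summed, the log2 fold change of Rpl10 was 0.0025 on regular fat and 0.28 on high fat. It was then no exception, and 80 of 82 members were above 0. edgeR called 0 of 82 members in either direction, against 0.00682% of all genes higher and 0% lower, and DESeq2 called 0, against 0.0818% and 0.0273%. At an unadjusted p under 0.05, 10 members were higher and 0 lower by edgeR, where 1.83% and 1.32% of all genes were. The number of members under that threshold was 2 without RF.SAAR mouse 1, HF.Ctrl mouse 3 or HF.SAAR mouse 2. It was 49 without HF.Ctrl mouse 2 and 31 on library size alone. Shares of all genes were not computed for these fits. The median difference of the log2 fold changes was 0.35, beside 0.0094 over all genes. The other 831 genes at 100 TPM or more also leaned to the higher side, with 603 above 0 and a median of 0.11. Of the Kupffer and immune markers 11 of 11 were above 0, with a median of 0.32, and edgeR called 0, with 2 at an unadjusted p under 0.05, and DESeq2 0. Erythroid markers were above 0 in 4 of 5, with a median of 0.69, and edgeR and DESeq2 called 0. At an unadjusted p under 0.05 edgeR had 1 of them higher and 1 lower, and DESeq2 3 and 1. Hepatocyte markers were above 0 in 7 of 8, with a median of 0.20, and all 26 acinar genes tested were, with a median of 4.91. Medians of the remaining marker lists were 0.21 for proliferating cells, 0.08 for cholangiocytes, 0.01 for endothelial cells, -0.09 for stellate cells and -0.998 for adipocytes. The part of these cells in the difference was not tested. Among members the smallest p was that of Rpl36a, at 0.56 (SE 0.20, edgeR adjusted p = 0.999). The median was 0.18 without HF.Ctrl mouse 3, 0.50 without HF.Ctrl mouse 2 and 0.25 with the acinar sum as a covariate. It was 0.55 without the 5 mice high in acinar genes, where HF.Ctrl mouse 3 and HF.SAAR mouse 1 were alone in their groups.

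Fat was compared within each diet, and these comparisons share mice with those of restriction. On the control diets HF mice had slightly lower values, with 4 of 82 members above 0 and a median of -0.10, beside 0.0016 over all genes. edgeR called 0 members higher and 0 lower, as it did for 0% of all genes in either direction, and DESeq2 called 0, against 0.0545% and 0.177%. At an unadjusted p under 0.05, where 1.54% and 2.05% of all genes were, there were 0 higher and 1 lower by edgeR, Rpl5, at -0.31 (SE 0.11, edgeR adjusted p = 1, lower in 3 of 3 mice). The direction rested on HF.Ctrl mouse 3: without it the median was 0.06 with 64 of 82 above 0. Without HF.Ctrl mouse 2 the median was -0.25, with 15 members at an unadjusted p under 0.05 by edgeR. On library size alone it was -0.17, beside -0.06 over all genes, with 14 members under that threshold. Acinar sums were above 1000 CPM in RF.Ctrl mouse 1 and in HF.Ctrl mice 1 and 2, and without them the median was -0.43, resting on HF.Ctrl mouse 3 alone in its group. With the acinar sum as a covariate it was -0.21, with 1 of 82 above 0. Kupffer and immune markers were below 0 in 10 of 11, with a median of -0.07, hepatocyte markers in 7 of 8, with a median of -0.12, and erythroid markers in 4 of 5, with a median of -0.56 and the groups apart in 4. In these lists edgeR and DESeq2 called 0, and 3, 1 and 2 markers were lower at an unadjusted p under 0.05 by edgeR. All 26 acinar genes tested were above 0, with a median of 2.39. Elsewhere the medians were -0.37 for cholangiocytes, -0.21 for proliferating cells, 0.0090 for endothelial cells, 0.04 for stellate cells and 0.79 for adipocytes. What part these cells had was not tested.

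On the restricted diets HF mice had higher values in 80 of 82 members, with a median of 0.23 beside 0.0065 over all genes. The other 831 genes at 100 TPM or more were above 0 in 641, with a median of 0.11, and mitochondrial ribosomal proteins in 62 of 78, with a median of 0.12. edgeR called 0 members higher and 0 lower, against 0.0204% and 0.0273% of all genes, and DESeq2 called 0, against 0.368% and 0.218%. At an unadjusted p under 0.05 edgeR had 5 members higher and 1 lower, against 3.36% and 2.23% of all genes, and 100 higher and 27 lower among the 831. Acinar genes moved with this comparison, as all 26 that were tested had an unadjusted p under 0.05 and higher values in HF.SAAR by edgeR, of which edgeR called 0 and DESeq2 22. The members' median was 0.02 with the acinar sum as a covariate. It was 0.09 without the 5 mice, which left HF.SAAR mouse 1 alone in its group. Leaving out a mouse it ran from 0.10 without HF.SAAR mouse 2 to 0.34 without RF.SAAR mouse 2, where 19 members had an unadjusted p under 0.05 by edgeR; without HF.Ctrl mouse 3, a mouse of neither group compared, 24 did, and 0 were called each time. Kupffer and immune markers were above 0 in 10 of 11, with a median of 0.18, hepatocyte markers in 6 of 8, with a median of 0.08, and erythroid markers in 4 of 5, with a median of 0.13. In these lists edgeR and DESeq2 called 0, with 0, 1 and 1 at an unadjusted p under 0.05 by edgeR, each lower. For the others the medians were 0.07 for proliferating cells, 0.04 for stellate cells, -0.06 for endothelial cells, -0.15 for cholangiocytes and -0.39 for adipocytes. The part of acinar RNA or of these cells in this difference was not tested beyond these values.

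Genes around the ribosome were read from lists. Of 15 other mRNAs with a TOP tract, mostly translation factors, edgeR called 0 on regular fat, with 1 at an unadjusted p under 0.05 and 0 called by DESeq2. DESeq2 called 2 on high fat and 5 averaged over fat. At an unadjusted p under 0.05, edgeR had 7 higher on high fat and 8 higher averaged over fat, with 0 lower in each. edgeR called 1 on high fat, Eef1a1, which brings aminoacyl-tRNA to the ribosome. Its normalized CPM were 4233, 4652 and 4225 in HF.Ctrl mice and 5315, 5593 and 5532 in HF.SAAR mice. The groups were apart, with a log2 fold change of 0.33 (edgeR, SE 0.072, adjusted p = 0.0343, higher in 3 of 3 mice). The call was lost without RF.Ctrl mouse 2, HF.Ctrl mouse 1, HF.Ctrl mouse 3 or any 1 HF.SAAR mouse, at 0.30 to 0.35, and without the 5 mice high in acinar genes, at 0.31. The medians of the list were 0.13 on regular fat and 0.22 on high fat. Averaged over fat 3 rose, Eef1a1 at 0.21 (SE 0.051), Eef2, the translocation factor, at 0.22 (SE 0.060) and the nucleolar chaperone Npm1 at 0.30 (SE 0.082), with edgeR adjusted p of 0.0226, 0.0406 and 0.0457. In Eef1a1 and Eef2 all 6 SAAR mice lay above the controls of their fat level, and in Npm1 5 of 6 did. The initiation factor Eif4b was at 0.19 (edgeR adjusted p = 0.0873).

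Of 30 genes of ribosome biogenesis, edgeR called 0 on regular fat, with 5 at an unadjusted p under 0.05, and 0 on high fat, with 2, and DESeq2 called 0 in both. The medians were 0.16 and 0.05. Averaged over fat DESeq2 called 3, and by edgeR 2 rose, Sbds, which helps release Eif6 from the new large subunit, at 0.35 (SE 0.081, edgeR adjusted p = 0.0188) and Gnl3, known as nucleostemin, at 0.38 (SE 0.11, edgeR adjusted p = 0.0485). Sbds had 55.1, 52.8 and 47.1 CPM in RF.Ctrl mice, 58.0, 71.2 and 67.0 CPM in RF.SAAR mice, 50.4, 57.3 and 46.5 CPM in HF.Ctrl mice and 68.0, 70.2 and 60.2 CPM in HF.SAAR mice. All 6 SAAR mice lay above the controls of their fat level, whereas the groups overlapped for Gnl3. Nucleolin (Ncl) was at 0.24 and Rrs1 at 0.32 and did not pass the test.

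Among 12 regulators of these mRNAs the median was 0.20 on regular fat and 0.08 on high fat. edgeR called 1 in each, and DESeq2 called 1 and 2. Yy1, a zinc finger transcription factor, had 58.7, 58.0 and 58.5 CPM in RF.Ctrl mice and 75.6, 72.4 and 78.5 CPM in RF.SAAR mice. The groups were well apart, and Yy1 rose on regular fat by a log2 fold change of 0.37 (edgeR, SE 0.085, adjusted p = 0.0496, higher in 3 of 3 mice). This call sat at the threshold and was lost without any 1 of the mice other than HF.Ctrl mouse 3, at 0.35 to 0.40. Eif4ebp1, whose protein holds back the cap-binding factor eIF4E, had 41.6, 56.4 and 30.1 CPM in HF.Ctrl mice and 70.5, 76.8 and 79.6 CPM in HF.SAAR mice. All restricted mice were higher, and Eif4ebp1 rose on high fat by 0.83 (SE 0.18, edgeR adjusted p = 0.0307). Its call was lost without HF.Ctrl mouse 1 or 3 or any 1 HF.SAAR mouse, at 0.63 to 0.87, and without the 5 mice high in acinar genes, at 1.21. Averaged over fat both rose, at 0.34 (edgeR adjusted p = 0.00439) and 0.62 (edgeR adjusted p = 0.00966), in 6 of 6 SAAR mice each, and Larp1 and the S6 kinase gene Rps6kb1 were both at 0.20 without passing.

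The 78 mitochondrial ribosomal proteins, which serve the separate ribosome of that organelle, had medians of -0.04 on regular fat and 0.01 on high fat. edgeR called 0 in both, with 3 at an unadjusted p under 0.05 in each, and DESeq2 called 0. Averaged over fat the median was 0.0032 and edgeR called 0, with 5 at an unadjusted p under 0.05, while DESeq2 called 1. Mrpl15 and Mrpl23 were at 0.36 and 0.57, and Mrpl32 and Mrpl44 at -0.32 and -0.22.

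**Figure D5:**
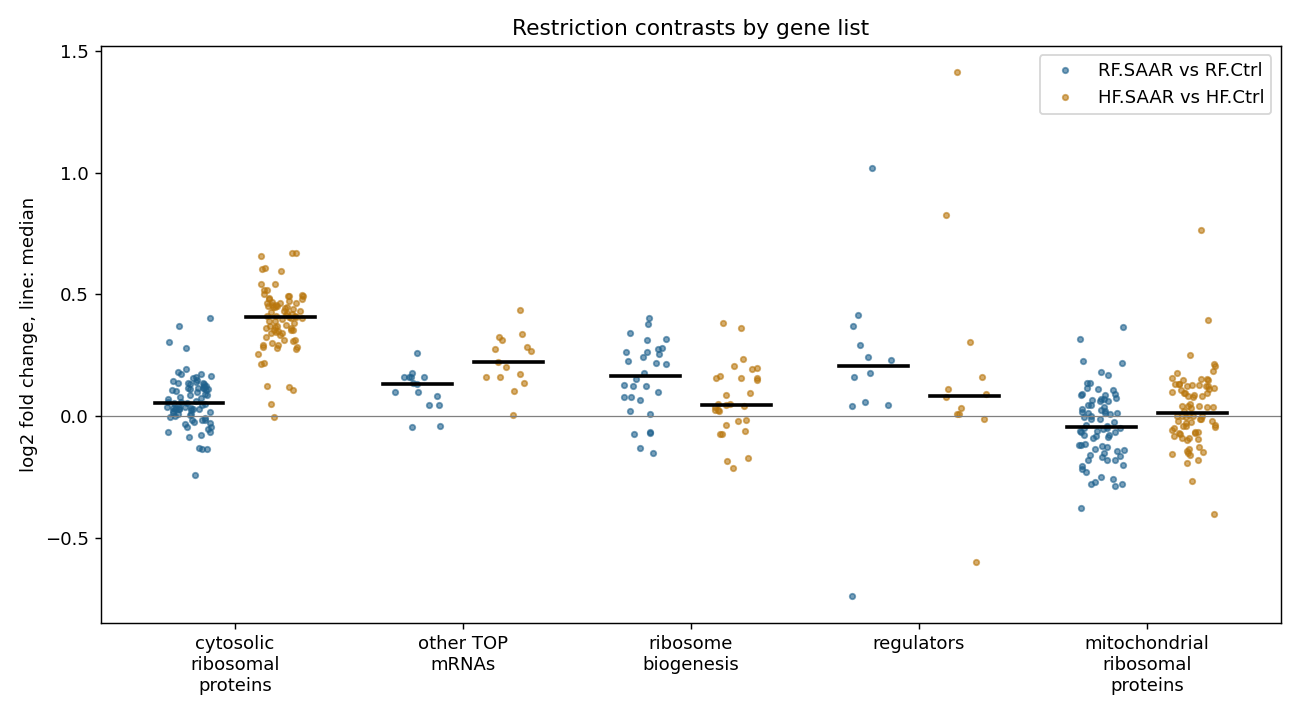
Log2 fold change of each gene (points) and the median (line) for the 82 members, 15 other TOP mRNAs, 30 biogenesis genes, 12 regulators and 78 mitochondrial ribosomal proteins, for restriction on regular fat and on high fat, on TMM scaling. On high fat the medians are 0.41, 0.22, 0.05, 0.08 and 0.01; on library size alone the median of all genes tested is 0.17.

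Among the cell type markers, edgeR called Alas2, of heme synthesis in red cell precursors, lower on regular fat at -0.94 (SE 0.13, adjusted p = 0.00303) and on high fat at -1.36 (SE 0.13, adjusted p = 9.56e-05), in 3 of 3 mice each. On regular fat all 5 erythroid markers had lower values, with the groups apart, a median of -0.77, 5 at an unadjusted p under 0.05, 1 called by edgeR and 4 by DESeq2. On high fat the median was -0.08, with 1 of 5 above 0 and 1, Alas2, at an unadjusted p under 0.05. Serpina1c, a secreted protease inhibitor of hepatocytes, was lower at -0.60 (SE 0.096, edgeR adjusted p = 0.00768) and -0.43 (SE 0.096, edgeR adjusted p = 0.0345), in 3 of 3 mice each. The 8 hepatocyte markers had a median of -0.23 on regular fat, with 1 above 0, and of -0.04 on high fat, with 3 above 0, where Ass1 of the urea cycle was at 0.46 (SE 0.14, edgeR adjusted p = 0.145, higher in 3 of 3 mice). Lrat, a stellate cell gene, was lower on regular fat at -0.86 (SE 0.19, edgeR adjusted p = 0.0408, 3 of 3 mice). The 6 stellate markers had a median of -0.05 there, with 1 above 0. Averaged over fat, Spp1 was lower at -0.46 and the endothelial gene Lyve1 higher at 0.55 by edgeR. The 5 cholangiocyte markers, Spp1 among them, had a median of -0.39, with 1 above 0. The 5 endothelial markers had a median of 0.11, with 3 above 0. In the acinar, Kupffer and immune, adipocyte and proliferating cell lists edgeR and DESeq2 called 0 genes in either restriction comparison, with 1 at an unadjusted p under 0.05 by edgeR. All 26 acinar genes tested had lower values on regular fat, with a median of -3.45 and 12 at an unadjusted p under 0.05 by DESeq2, and all 26 had higher values on high fat, with a median of 1.25. Kupffer and immune markers were above 0 in 6 of 11 on regular fat, with a median of 0.02, and in 10 of 11 on high fat, with a median of 0.30. The part of these cells in the members' differences was not tested beyond the values given. In the endothelial list edgeR called 0 in both, with 1 at an unadjusted p under 0.05 in each, and DESeq2 called 1 on high fat. In the cholangiocyte list edgeR called 0 in both, with 1 on regular fat and 2 on high fat at an unadjusted p under 0.05, and DESeq2 called 1 on high fat.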

How the data were processed

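Liver RNA of 12 mice, 3 per group, was measured by polyA-selected, paired-end sequencing. After trimming by cutadapt, the authors ran kallisto against the Ensembl 94 mouse transcriptome, and the deposited estimated counts are its read pairs per transcript, with shared reads divided by likelihood. The deposited TPM are these counts per effective length, scaled to the same sum in each mouse by the authors. Of 118489 transcripts, 116816 were matched to an annotation of GRCm38 (Ensembl release 96), and the other 1673 held 1.07% of counts.

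Estimated counts were summed per gene and rounded, and 14670 genes that passed filterByExpr were tested with edgeR 4.0.16 (R 4.3.3; TMM factors, robust quasi-likelihood F-test, 1 fit over 12 mice with a coefficient per group, Benjamini-Hochberg adjustment over all genes; DESeq2 1.42.0 as an alternative). Each SE was taken as the absolute log2 fold change over the square root of F. Normalized CPM use TMM-scaled library sizes. Precision rests on the spread between mice, as estimated counts are not independent molecules. Pseudogenes were matched with BLAST 2.17.0 (at least 85% identity over at least 100 bases and 50% of the shorter sequence). The fitting was tested on simulated data. Tables were made with Python 3.11.15, numpy 2.4.6 and pandas 2.3.3. Promoters came from RefSeq.

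Members and gene lists were chosen with earlier results of these data known. Named are members called in either restriction comparison, the 3 with the highest and 3 with the lowest mean TPM, the 5 with the largest and 5 with the most negative mean restriction effect, both genes of each pair of variant and partner, the stalk genes, Rpsa, Rps27a and the proteins the study speaks of as exchanging on the ribosome. Of each other list, up to 4 genes with the smallest p in the mean restriction effect are named. The lists were other TOP mRNAs, ribosome biogenesis, regulators, mitochondrial ribosomal proteins and 9 sets of cell type markers. A further list is not reported here.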

Additional observations from a re-analysis of the deposited data

How the results depend on the processing

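The alternatives covered scaling, filters, effective length, the mice in the fit, DESeq2, read sharing, the sum over transcripts, the acinar signal and leaving out each mouse. Counts of pseudogenes matched by sequence were added after seeing the data. No paired analysis was possible because the labels give no replicate numbers.

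On high fat, 4 members were called higher as reported, 58 on library size alone, 21 by DESeq2, 2 with sequence-matched pseudogenes, 1 where only the groups compared were fitted, 0 (67 at an unadjusted p under 0.05 by edgeR) without the mice above the acinar limit, and 0 to 18 leaving out a mouse. The other settings gave 3 to 5, not always the same genes: Rpl5 was not called with offsets for effective length, nor Rpsa with the most abundant transcript alone, nor Rpl36a with named pseudogenes added. For the mean restriction effect, 6 were called as reported, 66 on library size alone, 14 by DESeq2, 12 with the acinar covariate, 1 without the mice above the acinar limit, and 2 to 22 leaving out a mouse. On regular fat 2 were called on library size alone and 0 under each other setting. On library size alone the median of all genes was 0.17 on high fat, 0.16 on regular fat and 0.16 for the mean restriction effect. Shares of all genes called were computed for the reported edgeR fit and for DESeq2 only. No member was called lower in any comparison or setting run. Without the mice above the acinar limit the members' median was 0.63 on high fat and -0.43 for HF.Ctrl vs. RF.Ctrl. Both rested on HF.Ctrl mouse 3, the lowest mouse, alone in its group.

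The ratio of Rpl36al to Rpl36a differed by -0.33 with pseudogene TPM added and by -0.58 to -0.44 leaving out a mouse; that of Rpl22l1 to Rpl22 by 0.17 to 0.28. Reg1, an acinar gene, had a log2 fold change of 0.82 on high fat, and -0.98 with the acinar covariate. For these, the cause was not tested. Over the named members' fold changes in the restriction comparisons, 692 values outside the leave-one-out fits kept their side of the threshold and their direction or crossed 0 by less than their SE, 20 gained a call, 12 lost one and 4 crossed 0 by more than their SE without a call. On leaving out a mouse these numbers were 645, 5, 19 and 3. For the genes chosen from the other lists, cell type markers included, they were 1238, 5, 36 and 17 on leaving out a mouse. A difference that did not pass the test with 3 mice per group is not shown to be absent.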
